A study of Homo sapiens with 6 samples.

Results

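Glioblastoma is driven by a short list of recurrently altered genes, and 8 of them that lie outside the 9p21 locus were followed here in the human glioblastoma cell line U87-MG. The genes were NF1, TERT, ATRX, IDH1, IDH2, PIK3CA, PIK3R1 and MGMT. They were picked by name from the 61806 genes of the deposited table, and each matched 1 entry. Of the 8 genes, 7 had a count in at least 1 library, and 6 passed the filter on low values that was set for testing, namely 0.5 FPKM or more on average across all 6 libraries. FPKM divides a gene's read count by its exonic size in kilobases and by the total counts of the library in units of 1e+06.

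The genes act in 5 processes. NF1 encodes neurofibromin, which turns off RAS. PIK3CA and PIK3R1 encode the p110α catalytic and the p85α regulatory subunit of phosphoinositide 3-kinase (PI3K), which works downstream of growth factor receptors. TERT is the catalytic subunit of telomerase, and ATRX is a chromatin remodeler that deposits histone H3.3 at telomeres and other repeats together with DAXX. IDH1 in the cytosol and IDH2 in mitochondria convert isocitrate to 2-oxoglutarate with the production of NADPH. MGMT removes alkyl groups from guanine, and its loss sensitizes glioma cells to temozolomide. These genes are known in glioma mainly for mutations or promoter methylation, which the deposited table does not measure. The values below are RNA levels only.

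Total RNA was sequenced from 3 libraries of the negative control (NC), whose genotype is labelled wildtype, and from 3 libraries labelled GRIK1 siRNA, whose genotype is labelled GRIK1 knockdown (the knockdown-labelled libraries below). The comparison asks how lowering GRIK1, a kainate-type glutamate receptor subunit, changes the transcriptome of glioblastoma cells. All 6 libraries come from the same line, which is 1 tumor's genome. No label says whether the numbers 1 to 3 stand for separate cultures, nor whether they stand for the 3 siRNA sequences of the study, and the design text of the series names an shRNA where the sample labels name an siRNA. The study's text says that the sequence siRNA1, its most efficient, served in later experiments, and its account of the sequencing comes after that without naming a sequence. The p-values measure the spread between these libraries, which may be technical.

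The library totals ran from 11099909 to 14006968 counts. GRIK1 itself had counts of 18, 9 and 8 in NC libraries 1, 2 and 3, against 15, 20 and 20 in the knockdown-labelled libraries, so the targeted gene was not lower in the group named for its knockdown (difference 0.12 on the log2(FPKM + 1) scale, two-sided exact permutation p = 0.4, where 3 against 3 cannot go below 0.1). NC library 3 stood apart, with 9.37% of its counts on ribosomal protein genes against 4.79% to 5.50% in the other 5, and edgeR's common dispersion fell from 0.0391 to 0.00298 without it. The differences of the tested driver genes are therefore given with and without that library, and the part of this shift in the differences was not tested. Genes with a count numbered 23902 to 24993 in the NC libraries, against 26134 to 27049 in the knockdown-labelled libraries. Genes without a symbol took 0.53% to 0.78% of the counts in NC, against 0.87% to 1.83% in the others. The part of these 2 measures was not tested either. Of 9 glioma and astrocyte markers, VIM, CD44 and SLC1A3 reached 1 FPKM, while GFAP stayed at or below 0.28 FPKM and AQP4 was at 0 counts. Of 13 markers of neurons, immune cells, endothelium and epithelium, 4 reached 1 FPKM (CD68, KRT8, SNAP25 and EPCAM, at most 4.06), and PTPRC, AIF1, PECAM1, CDH5 and VWF stayed below 0.1 FPKM. The groups did not overlap for 7 of the 22 markers (31.8%, against 38.4% of all tested genes). GFAP, SOX2, RBFOX3 and CD68 were higher in the knockdown-labelled libraries (GFAP at 0.25 to 0.28 FPKM against 0.05 to 0.1, CD68 at 3.44 to 4.06 against 2.11 to 3.21), and SOX2 rests on 9 counts over all 6 libraries. SLC1A3, SNAP25 and KRT8 were lower (SNAP25 at 1.45 to 1.55 FPKM against 1.57 to 2.15, KRT8 at 2.49 to 2.98 against 3.31 to 3.97). The part of these markers in the results was not tested. In bulk RNA, fewer cells with a transcript and less of it per cell cannot be told apart.

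IDH1 was by far the highest of the 8 genes. Its level was 56.5, 58.4 and 81.8 FPKM in NC libraries 1, 2 and 3, against 54.4, 55.9 and 53.7 FPKM in the knockdown-labelled libraries, above 96.0% to 97.1% of the 15870 tested genes. IDH2 followed with 8.65 ± 0.43 FPKM in NC (SD, n = 3), and ATRX with 4.84 ± 0.196 FPKM. PIK3CA (2.64 ± 0.294 FPKM), PIK3R1 (2.29 ± 0.15 FPKM) and NF1 (2.14 ± 0.526 FPKM) came next, and in this order the ranges of neighbours overlapped in the NC libraries. In the knockdown-labelled libraries, NF1 (3.43 ± 0.0361 FPKM) lay above both PI3K genes with no overlap, whereas PIK3CA and PIK3R1 (each 2.12 FPKM) still overlapped. TERT and MGMT were at the bottom in both groups.

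**Figure D1:**
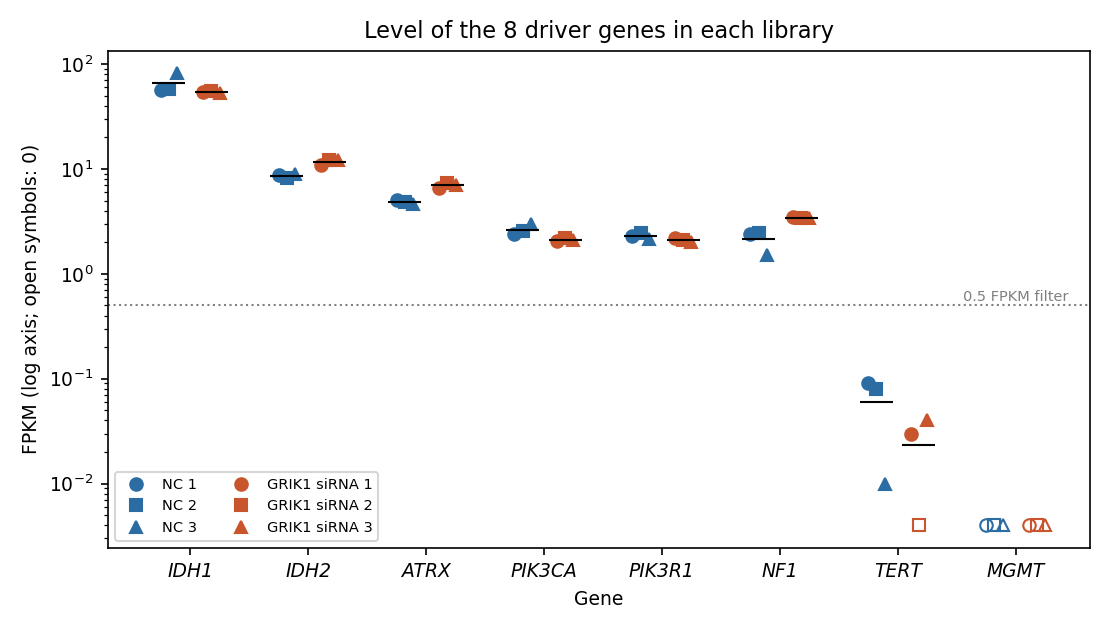
FPKM of the 8 genes in each library on a log axis, with NC in blue and GRIK1 siRNA in orange, a bar at each group mean and open symbols for values of 0. IDH1 lies at 53.7 FPKM or more in all 6 libraries, 6 genes lie above the dotted filter at 0.5 FPKM, and MGMT is at 0 throughout.

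This order rests on the length each gene is divided by. The deposited exonic size came to 41150 bases for NF1. In GENCODE 29 its joined exons cover 27130 bases and its longest principal transcript 12362 bases, so the deposited size is 3.33 times the latter. For IDH2 the 2 lengths nearly matched (2787 and 2694 bases). Per principal transcript, NF1 had 7.11 ± 1.75 FPKM in the NC libraries, a mean above those of both PI3K genes though the ranges overlapped, ATRX (9.85 ± 0.406) moved ahead of IDH2 (8.95 ± 0.444), and IDH1 stayed first with 126 FPKM. Which length fits depends on the transcripts present, and gene counts do not show that. Differences between the groups are not touched by the choice of length, since it is the same in every library.

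**Figure D2:**
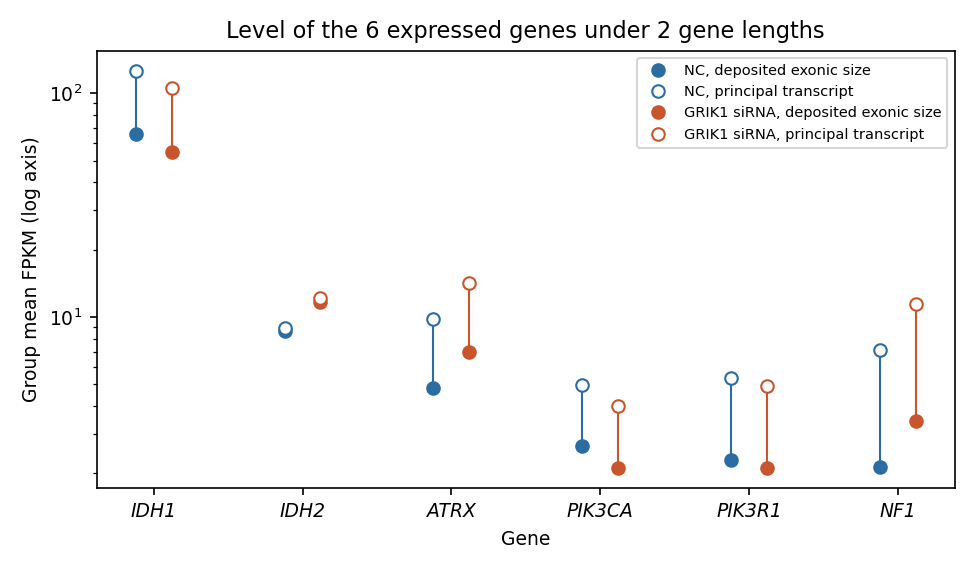
Group mean FPKM of the 6 expressed genes on a log axis, with filled symbols for the deposited exonic size and open symbols for the longest principal transcript. The gap is widest for NF1, from 2.14 to 7.11 FPKM in NC, and is nearly absent for IDH2.

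MGMT and TERT were the silent and the nearly silent gene of the set. MGMT (ENSG00000170430, chromosome 10 from 129467190 to 129770983, plus strand, GRCh38) had 0 counts in each of the 6 libraries. A count of 0 still allows up to 3 counts (95% limit), which is 0.0328 to 0.0414 FPKM per library. No MGMT difference could be computed. None of the 3 genes that overlap MGMT in the table reached the mean of 10 counts set for naming.

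TERT (ENSG00000164362, chromosome 5 from 1253147 to 1295068, minus strand) had 6, 5 and 1 counts in NC libraries 1, 2 and 3, against 2, 0 and 3 counts in the knockdown-labelled libraries. The groups overlapped through NC library 3. Summed over each group, TERT had 12 counts in NC and 5 in the others. Scaled to the library totals this is a ratio of 0.395 (exact 95% interval 0.109 to 1.20, counting error only). When edgeR was run without the filter, the log2 fold change came to -1.41 (adjusted p = 0.521), and to -1.90 (adjusted p = 0.2) without NC library 3, where the groups no longer overlapped. A difference in TERT was not detectable at this depth.

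For MGMT and TERT, the bases before the annotated start are shown beside those of IDH1, the highest gene of the set, because DNA methylation at CG sites of the promoter region is what is usually assayed for MGMT in glioma. CG sites after the start are not shown, and whether those shown include the sites usually assayed was not checked. Each line gives 250 bases upstream of the start from RefSeq (GRCh38.p14), 5′ to 3′ on the strand of the gene, with every CG in capitals. They lie at chr10:129466991-129467240 on the plus strand, chr5:1295069-1295318 on the minus strand and chr2:208255072-208255321 on the minus strand, in that order.
MGMT: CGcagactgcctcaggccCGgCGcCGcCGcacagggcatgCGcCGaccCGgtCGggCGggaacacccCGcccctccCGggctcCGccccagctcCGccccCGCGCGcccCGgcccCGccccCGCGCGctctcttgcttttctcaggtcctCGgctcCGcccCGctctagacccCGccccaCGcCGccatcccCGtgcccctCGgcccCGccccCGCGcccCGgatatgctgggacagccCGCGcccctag
TERT: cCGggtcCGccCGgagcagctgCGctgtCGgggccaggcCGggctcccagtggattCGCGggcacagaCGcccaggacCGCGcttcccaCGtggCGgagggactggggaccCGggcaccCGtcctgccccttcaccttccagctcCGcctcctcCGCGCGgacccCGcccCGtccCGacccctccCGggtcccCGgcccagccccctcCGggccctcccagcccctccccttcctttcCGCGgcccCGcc
IDH1: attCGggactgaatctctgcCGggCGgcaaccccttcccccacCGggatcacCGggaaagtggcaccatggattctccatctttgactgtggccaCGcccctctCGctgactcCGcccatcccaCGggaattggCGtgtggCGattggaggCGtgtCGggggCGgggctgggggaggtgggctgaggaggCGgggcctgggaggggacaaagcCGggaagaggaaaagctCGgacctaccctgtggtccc
The motif CG reads the same on both strands. It occurs 36 times in the MGMT stretch, 28 times in that of TERT and 17 times in that of IDH1. Over windows of 300 bases (250 before the start and 50 after it), MGMT had 45 CG, and 3.48% of the 35116 RefSeq windows had as many or more. TERT had 36 (12.7% of windows) and NF1 29 (24.2%), against a median of 14. PIK3R1 has 4 annotated windows, the densest with 42 CG (5.85%) and 2 with only 3. IDH2 had 6 CG (66.3%). The windows follow the RefSeq starts, and those of IDH1, that of IDH2 and 3 of the 4 of PIK3R1 lie inside the gene span of the deposited table. PIK3CA had 22 CG (37.7%), and the IDH1 window that holds the stretch shown had 20 (41.2%). The ATRX promoter was not analysed here. These are reference sequences, and methylation was not measured.

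The 6 tested genes split evenly by direction. NF1, ATRX and IDH2 were higher in the knockdown-labelled libraries, and IDH1, PIK3CA and PIK3R1 were lower. For 6 of 6 the 3 libraries of each group did not overlap in CPM normalised by the TMM method of edgeR, 3 higher and 3 lower. Of all 15870 tested genes 38.4% had groups that did not overlap (19.4% higher, 19.0% lower). In edgeR with all 6 libraries, 0 of 6 had an adjusted p under 0.05, the threshold used here, where 3.08% of the tested genes did. 0 of 6 were called, meaning that adjusted p together with an absolute log2 fold change over 1, against 1.41% of tested genes. An unadjusted p under 0.05 was reached by 4 of 6 (NF1, ATRX, IDH2 and PIK3CA), against 25.1% of tested genes. DESeq2 gave an adjusted p under 0.05 to 2 of 6, NF1 and ATRX (10.6% of tested genes), and limma-trend to 0 of 6 (2.56% of tested genes), with 3 of 6 at an unadjusted p under 0.05 (24.5% of tested genes).

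Without NC library 3, 4 of 6 passed at an adjusted p under 0.05 in edgeR, where 35.2% of tested genes did. NF1, ATRX and IDH2 rose (16.9% of tested genes rose) and PIK3CA fell (18.3% fell). IDH1 and PIK3R1 did not pass. None of the 6 reached an absolute log2 fold change of 1 in either fit. The median absolute log2 fold change of the 6 genes was 0.39 with all libraries, beside 0.33 over all tested genes.

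**Figure D3:**
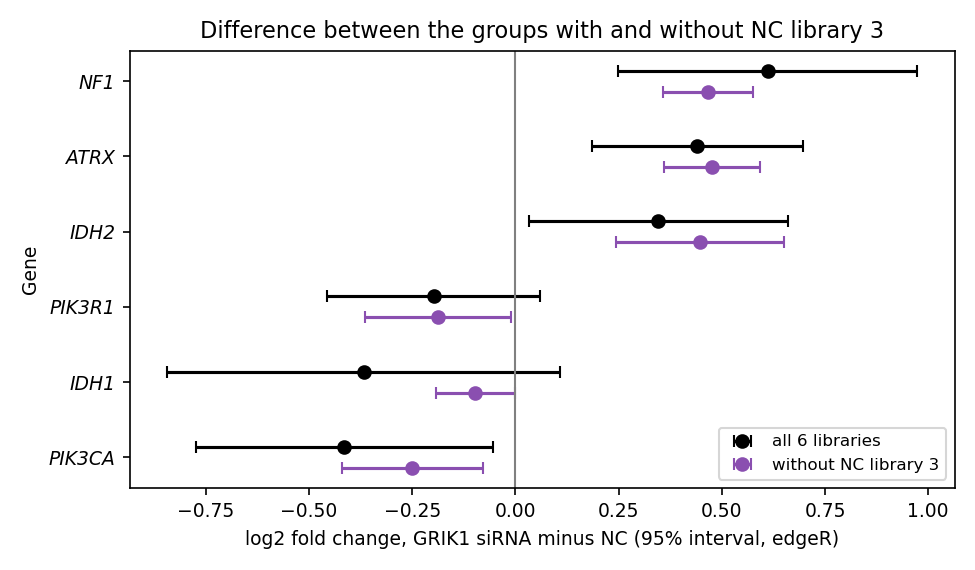
Log2 fold change of the 6 tested genes from edgeR (GRIK1 siRNA minus NC, points) with 95% intervals (bars), with all 6 libraries in black and without NC library 3 in purple. NF1, ATRX and IDH2 lie above 0 and PIK3CA below 0 in both fits, and the intervals are narrower without that library.

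NF1 (ENSG00000196712, chromosome 17 from 31094927 to 31382116, plus strand) had the largest positive log2 fold change of the set with all 6 libraries. Its normalised CPM was 97.9, 101 and 70.6 in NC libraries 1, 2 and 3, against 138, 136 and 137 in the knockdown-labelled libraries. The latter had an SD of 1.32 CPM, and NC library 3 was the lowest of all 6. The group mean was 52.7% higher, with a log2 fold change of 0.61 (SE, the standard error, 0.16, edgeR adjusted p = 0.0767). With NC library 3 left out the log2 fold change was 0.47 (SE 0.05, adjusted p = 2.22e-06), and that of ATRX was slightly larger (0.48).

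NF1 hosts other genes in its introns. EVI2A and EVI2B, small membrane protein genes on the minus strand inside NF1, both fell and were both called. EVI2A had 29.4, 33.7 and 46.5 normalised CPM in NC libraries 1, 2 and 3, against 15.0, 16.3 and 18.3 in the others, a log2 fold change of -1.14 (SE 0.19, edgeR adjusted p = 0.0355). EVI2B had 10.9, 9.56 and 13.8 normalised CPM in NC, against 4.30, 5.61 and 3.68 in the others, a log2 fold change of -1.34 (SE 0.23, adjusted p = 0.0364). In the fit without NC library 3, EVI2A had -0.93 and EVI2B -1.17 on the log2 scale, both with an adjusted p under 0.05, so that EVI2A no longer reached the fold set for a call. When 1 of the other 5 libraries was dropped in its place, no gene of the table was called. OMG, the oligodendrocyte myelin glycoprotein gene on the same strand, stayed at 0.54 FPKM or below and overlapped between the groups, as did the pseudogene AK4P1. Where reads were counted without strand, those from overlapping exons could not be told apart, and the strand setting is not given in the sources used here.

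The ratio of NF1 to EVI2A counts does not depend on library scaling. It was 3.33, 2.99 and 1.52 in NC libraries 1, 2 and 3, against 9.22, 8.33 and 7.50 in the knockdown-labelled libraries, with no overlap (two-sided exact permutation p = 0.1, the smallest possible, and 0.167 after adjustment over the 5 ratios computed). NC library 3 had the lowest ratio. NF1 was already higher and EVI2A already lower in the knockdown-labelled libraries with no overlap. The separation of the ratio and its p followed from that and add no evidence. The same holds for the ratio of NF1 to EVI2B (two-sided exact permutation p = 0.1). The FPKM ratio of NF1 to ATRX was 0.44 ± 0.0972 in NC and 0.493 ± 0.029 in the others, and the groups overlapped (two-sided exact permutation p = 0.6).

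**Figure D4:**
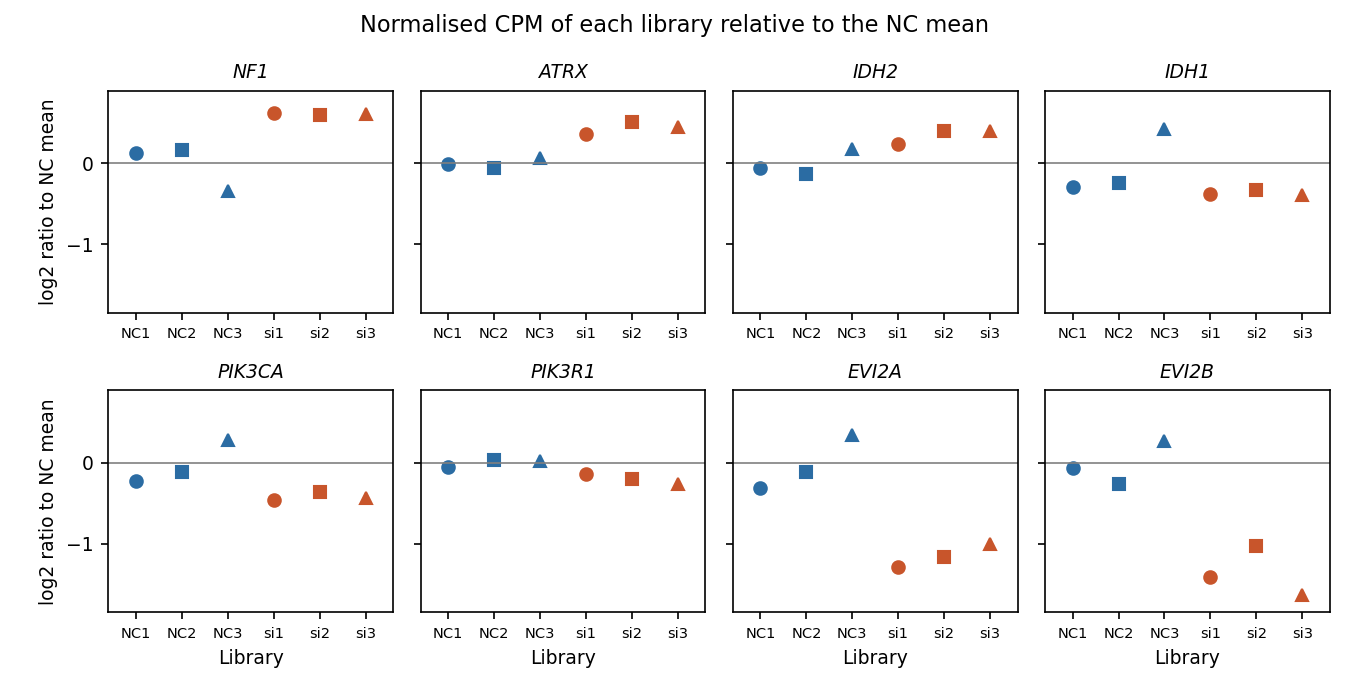
Log2 ratio of the normalised CPM of each library to the NC mean for the 6 tested genes and for EVI2A and EVI2B, which lie inside NF1, with NC in blue and GRIK1 siRNA (si) in orange. NC library 3 lies away from NC libraries 1 and 2 for NF1, IDH1, IDH2, PIK3CA, EVI2A and EVI2B. The orange points lie between 0.60 and 0.62 for NF1 and reach down to -1.28 for EVI2A and -1.63 for EVI2B.

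Around NF1, 24 of 25 other genes of the RAS pathway were tested. None passed at an adjusted p under 0.05 in edgeR, 9 had an unadjusted p under 0.05 (4 higher, 5 lower; 37.5%, against 25.1% of all tested genes), and the median log2 fold change was -0.08, against -0.02 over all tested genes. The smallest p-values were those of RASA1, RASA2, SPRED1 and SOS1. RASA1, another GTPase-activating protein of RAS, had 14.6, 13.7 and 13.2 FPKM in NC, against 21.1, 21.2 and 20.0 FPKM in the others (log2 fold change 0.50, adjusted p = 0.0517). RASA2, of the same family, had a log2 fold change of 0.61 (adjusted p = 0.102), and SOS1, an exchange factor that activates RAS, had 0.45 (adjusted p = 0.105). SPRED1, which recruits neurofibromin to the membrane, was lower, with a log2 fold change of -0.46 (adjusted p = 0.0836). When NC library 3 was left out, each of these 4 passed in the same direction. That follows in part from their choice by small p-values, since the fits share 5 libraries. Of the 24 genes, 14 passed in the fit without NC library 3 (6 higher, 8 lower), which is 58.3% against 35.2% of all tested genes. The list median was then -0.04, against 0.007 over all tested genes. This list and those below were chosen with earlier results of these data known. Their shares may therefore follow in part from the choice.

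ATRX (ENSG00000085224, chromosome X from 77504880 to 77786233, minus strand) was also higher. Its normalised CPM was 113, 109 and 118 in NC libraries 1, 2 and 3, against 146, 161 and 155 in the knockdown-labelled libraries. NC library 3 was the highest NC library and still lay well below the others. The mean was 35.8% higher, a log2 fold change of 0.44 (SE 0.11, edgeR adjusted p = 0.0744), and without NC library 3 it was 0.48 (adjusted p = 3.79e-06).

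Of 16 other genes of H3.3 deposition and heterochromatin, 16 were tested and 2 passed at an adjusted p under 0.05 in edgeR (12.5%, against 3.08% of all tested genes), with a median log2 fold change of 0.03. An unadjusted p under 0.05 was reached by 6 (2 higher, 4 lower), 37.5% against 25.1% of all tested genes. With NC library 3 left out, 8 of the 16 passed (3 higher, 5 lower), where 35.2% of all tested genes did. The list median in that fit was -0.009. HIRA, a chaperone that deposits H3.3 in genes, rose from 3.43 ± 0.683 to 6.03 ± 0.423 FPKM (SD, n = 3), a log2 fold change of 0.74 (adjusted p = 0.0464). CBX5, the heterochromatin protein HP1α, fell from 11.3 ± 0.387 to 7.80 ± 0.241 FPKM, a log2 fold change of -0.62 (adjusted p = 0.0434). ASF1B, a histone chaperone of dividing cells, and H3-3A, one of the H3.3 genes and itself mutated in some gliomas, had -0.69 and -0.81 without passing (adjusted p = 0.0706 and 0.0774). DAXX, the partner of ATRX, had 0.12 (adjusted p = 0.564), and 0.07 without NC library 3 (adjusted p = 0.549). It was named for its role and after its value was seen.

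IDH1 (ENSG00000138413, chromosome 2 from 208236229 to 208266074, minus strand) and IDH2 (ENSG00000182054, chromosome 15 from 90083045 to 90102477, minus strand) had log2 fold changes of opposite sign. Neither passed with all 6 libraries. For IDH1 the normalised CPM was 261, 272 and 431 in NC libraries 1, 2 and 3, against 247, 255 and 246 in the others, and NC library 3 lay far above the other 5. Its log2 fold change was -0.37 (SE 0.20, edgeR adjusted p = 0.295) and only -0.10 (SE 0.04, adjusted p = 0.107) without that library. IDH2 had 23.9, 22.7 and 28.2 normalised CPM in NC libraries 1, 2 and 3, against 29.4, 33.0 and 32.8 in the others, where NC library 3 was nearest to the knockdown-labelled libraries. Its log2 fold change was 0.35 (SE 0.13, adjusted p = 0.169), and 0.45 (SE 0.10, adjusted p = 0.00147) without NC library 3.

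The FPKM ratio of IDH1 to IDH2 was 6.48, 7.12 and 9.05 in NC libraries 1, 2 and 3, against 4.67 ± 0.29 (SD, n = 3) in the knockdown-labelled libraries, the last of which had 4.44. Each NC library lay above each of the others, and the difference of the mean log2 ratios was -0.68 (two-sided exact permutation p = 0.1, the smallest possible, adjusted p = 0.167 over 5 ratios). IDH1 was already lower and IDH2 already higher in the knockdown-labelled libraries with no overlap, so this separation and its p followed from that. IDH1-AS1, on the opposite strand of IDH1, was under the mean of 10 counts set for naming overlapping genes, and was named outside that rule after its counts were seen, beside at least 2949 counts on IDH1.

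Among 21 other genes of 2-oxoglutarate metabolism and its users, 19 were tested and 1 passed in edgeR (5.26%, against 3.08% of all tested genes), with a list median of -0.13 on the log2 scale. An unadjusted p under 0.05 was reached by 7 (3 higher, 4 lower), 36.8% against 25.1% of all tested genes. With NC library 3 left out, 11 of the 19 passed (4 higher, 7 lower), 57.9% against 35.2%. SLC25A11, the mitochondrial carrier of 2-oxoglutarate and malate, fell from 15.8 ± 1.57 to 9.39 ± 0.775 FPKM (log2 fold change -0.84, adjusted p = 0.0407). TET3 and TET2, which use 2-oxoglutarate to oxidize methylated cytosine, had log2 fold changes of 1.06 (adjusted p = 0.0642) and 0.51 (adjusted p = 0.0695). TET3 was at 2.55, 2.24 and 1.09 FPKM in NC libraries 1, 2 and 3, against 4.25, 4.17 and 4.37 FPKM in the others, and without NC library 3 it rose by 0.81 on the log2 scale (adjusted p = 7.20e-07). CS, the citrate synthase, had a log2 fold change of -0.45 (adjusted p = 0.074). The NAD-dependent subunits IDH3A, IDH3B and IDH3G were named for their role and after their values were seen. They had -0.29, 0.15 and 0.05 on the log2 scale, and none passed with all 6 libraries. Without NC library 3 they had -0.06, 0.28 and 0.003, and IDH3B passed (edgeR adjusted p = 0.0137).

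PIK3CA (ENSG00000121879, chromosome 3 from 179148114 to 179240093, plus strand) had 40.5, 43.8 and 57.2 normalised CPM in NC libraries 1, 2 and 3, against 34.3, 36.9 and 35.0 in the knockdown-labelled libraries. NC library 3 was the highest. The mean was 25.0% lower, a log2 fold change of -0.41 (SE 0.16, edgeR adjusted p = 0.159), which became -0.25 (SE 0.08, adjusted p = 0.0228) without NC library 3. KCNMB3, a potassium channel subunit gene that overlaps the 3′ end of PIK3CA on the minus strand, was under the filter, at 0.213 ± 0.0473 FPKM in NC and 0.383 ± 0.0907 FPKM in the others.

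PIK3R1 (ENSG00000145675, chromosome 5 from 68215740 to 68301821, plus strand) had the log2 fold change nearest to 0 of the 6 with all libraries. It had 37.0, 39.5 and 39.0 normalised CPM in NC libraries 1, 2 and 3, against 35.1, 33.4 and 32.1 in the others. The gap between the groups was narrow, and in FPKM, without the TMM scaling, the groups overlapped. The log2 fold change was -0.20 (SE 0.11, 95% interval -0.46 to 0.06, edgeR adjusted p = 0.298), and -0.19 without NC library 3 (adjusted p = 0.0949). In the latter fit IDH1 was nearest to 0, at -0.10. The FPKM ratio of PIK3CA to PIK3R1 was 1.04, 1.05 and 1.39 in NC, against 0.928, 1.05 and 1.03 in the others, and the groups overlapped (two-sided exact permutation p = 0.2, adjusted p = 0.25 over 5 ratios).

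Of 28 other PI3K pathway genes, 18 were tested and none passed in edgeR. An unadjusted p under 0.05 was reached by 2, IRS1 and PHLPP2 (11.1%, against 25.1% of all tested genes), and the list median was 0.09 on the log2 scale. With NC library 3 left out, 7 of the 18 passed (5 higher, 2 lower), which is 38.9% against 35.2% of all tested genes. The list median in that fit was 0.06. IRS1, an adaptor that carries insulin receptor signals to PI3K, had a log2 fold change of -0.51 (adjusted p = 0.0744), and PHLPP2, a phosphatase that acts on AKT, had 0.72 (adjusted p = 0.0747). PDPK1, the kinase that activates AKT, and FOXO3, a transcription factor that AKT holds out of the nucleus, had 0.34 and 0.26 (adjusted p = 0.212 and 0.238).

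For TERT, tested only without the filter, and for MGMT, which gave no test, the other genes of their pathways add the following. Of 19 other telomerase and telomere genes, 16 were tested, none passed in edgeR, and 4 had an unadjusted p under 0.05 (1 higher, 3 lower), which is 25.0% against 25.1% of all tested genes. DKC1, the dyskerin of the telomerase complex, was at 7.22 FPKM in NC and 9.16 FPKM in the others (log2 fold change 0.26, adjusted p = 0.189), whereas NHP2 of the same complex had -0.47 (adjusted p = 0.141). The shelterin genes TINF2 and TERF2IP had -0.85 and -0.32 (adjusted p = 0.086 and 0.127). Without NC library 3, 4 of these 16 genes passed, DKC1 as higher and the other 3 as lower, which is 25.0% against 35.2% of all tested genes.

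Around MGMT, 13 of 13 other genes of alkylation damage repair were tested. None passed in edgeR, and 5 had an unadjusted p under 0.05 (1 higher, 4 lower), which is 38.5% against 25.1% of all tested genes. MSH3, a mismatch repair gene, had 4.78, 4.71 and 5.33 FPKM in NC, against 3.06, 3.54 and 3.61 FPKM in the others (log2 fold change -0.63, adjusted p = 0.0687). MSH6, of the same pathway, had -0.35 (adjusted p = 0.106), and APEX1, the abasic site nuclease, had -0.60 (adjusted p = 0.0748). LIG3, a DNA ligase, had 0.50 (adjusted p = 0.103). The list median was -0.22, with 3 of 13 genes above 0. Without NC library 3 the median was -0.20, and 7 of 13 genes passed, 2 higher and 5 lower, which is 53.8% against 35.2% of all tested genes.

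Of 18 other glioblastoma driver genes, 15 were tested and none passed in edgeR, while 5 had an unadjusted p under 0.05 (3 higher, 2 lower), which is 33.3% against 25.1% of all tested genes. With NC library 3 left out, 8 of the 15 passed (6 higher, 2 lower), 53.3% against 35.2%. The list median was 0.24 on the log2 scale with all libraries and 0.11 in that fit. MDM2, the ligase that degrades p53, was at 21.3, 20.9 and 19.1 FPKM in NC libraries 1, 2 and 3, against 30.1, 31.4 and 30.0 FPKM in the others (log2 fold change 0.49, adjusted p = 0.055). CDK4, the G1 cyclin-dependent kinase, had -0.90 (adjusted p = 0.149) with all libraries and -0.39 without NC library 3, and BRAF had 0.28 (adjusted p = 0.164). H3-3A, described above with ATRX, belongs to this list as well. Over the 7 lists together, 118 of 137 distinct genes were tested, 3 passed at an adjusted p under 0.05 in edgeR (2.54%, against 3.08% of all tested genes) and 0 were called. An unadjusted p under 0.05 was reached by 36 (30.5%, against 25.1%), and DESeq2 called 1 gene, TET3. The 3 genes that passed (HIRA, CBX5 and SLC25A11) also passed in the same direction without NC library 3. Of the 27 partner genes named by rule, 26 passed in that fit and PDPK1 did not, each in the same direction as with all libraries. These genes had been chosen for small p-values in a fit that shares 5 libraries with this one, so the count follows in part from the choice, and 48.3% of all tested list genes and 35.2% of all tested genes passed there. The log2 fold change moved by over 1.5 times for 4 of them, to 0.22 for PDPK1, -0.28 for NHP2, -0.54 for H3-3A and -0.39 for CDK4. When 1 of the other 5 libraries was dropped, 0 genes of the table passed, with 2241 to 4434 at an unadjusted p under 0.05.

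**Figure D5:**
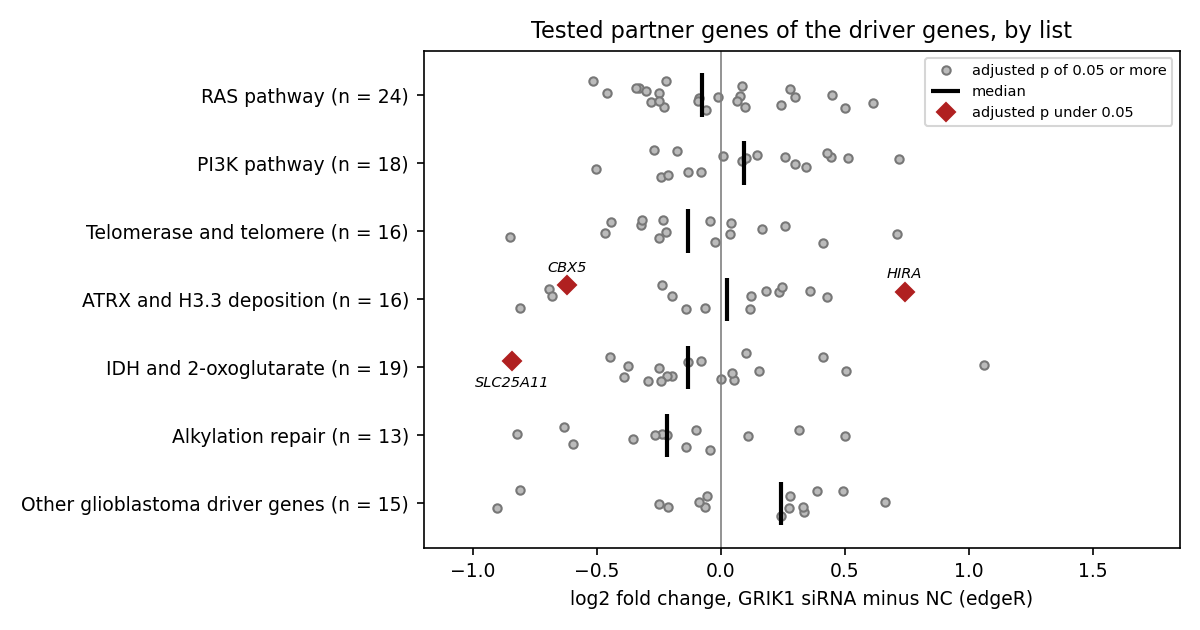
Log2 fold changes (edgeR, GRIK1 siRNA minus NC) of the tested partner genes by list, with a black bar at each list median and red diamonds for the 3 genes with an adjusted p under 0.05. With all 6 libraries, the medians lie between -0.22 for alkylation repair and 0.24 for the other glioblastoma driver genes.

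ATRX and IDH2 had profiles close to each other. The root mean square difference of their centred log2 CPM over the 6 libraries was 0.08, the smallest of the 15 pairs of tested members, followed by 0.09 between IDH1 and PIK3CA, and the largest was 0.62 between NF1 and IDH1. Among the other 13760 tested genes with a symbol, the profile nearest to that of NF1 was that of FNDC3B, followed by ARHGEF7 (0.03 for each). For ATRX these were TBC1D8B and TTC3 (0.03 for each), for IDH2 TRPM7 (0.03) and DCP2 (0.04), for IDH1 HSPE1 (0.02) and MAT2B (0.03), for PIK3CA PRPS2 (0.01) and DFFA (0.02), and for PIK3R1 HERPUD2 (0.02) and DEGS1 (0.03). Such likeness over 6 libraries was not particular to the genes named. Of the 13760 genes, between 161 for NF1 and 724 for IDH1 lay within 0.1 of the member.

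NF1 and ATRX are long genes, and gene size moved with the difference over the whole table. Among the 245 tested genes with an exonic size of at least 20000 bases, which include both, the median log2 fold change was 0.18 and 67.8% were above 0, against a median of -0.02 over all tested genes. Without NC library 3 that median was 0.16. By genomic span of at least 200000 bases, the median of 868 genes was -0.02. IDH2, which was also higher, has an exonic size of only 2787 bases, in a size class of 3174 genes with a median of -0.14. The relation was not even over sizes, since the 3174 genes with the smallest exonic size (up to 1255 bases) had a median of 0.26. Without NC library 3 that median was 0.13, and the median of the size class of IDH2 was -0.05. The part of gene size in the differences of NF1 and ATRX was not tested.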

How the data were processed

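The authors deposited a table with whole-number read counts per gene, without normalization, and FPKM values per library. Checked on the table, 100% of the FPKM values equal, within 0.0051 FPKM, the count divided by the exonic size in kilobases and the library total in units of 1e+06. The submitters' processing notes name cutadapt 1.9.1, HISAT2, HTSeq and GRCh38, and the strand setting and annotation release are not given in the sources used here. No column of values was left unassigned (0). The deposited library totals of 11099909 to 14006968 counts limit precision. The interval of the TERT ratio and the MGMT limit cover counting error only, and edgeR's intervals include the spread between libraries.

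Groups follow the sample titles. Counts were tested in edgeR 4.0.16 (R 4.3.3, TMM, quasi-likelihood, no covariate) with Benjamini-Hochberg adjustment over the 15870 genes that averaged 0.5 FPKM or more. TERT and GRIK1 were fitted without the filter. Standard errors were taken from the fold change and the F statistic. DESeq2 1.42.0, limma 3.58.1 on log2(FPKM + 1) or log2(FPKM + 0.1), other filters and scalings, the replicate number as a block and leaving out each library were alternatives. The tests were tried on simulated data. Named genes are the 8 members, GRIK1, overlapping genes with a mean of at least 10 counts, per list the called genes or the 4 with the smallest p, and the 2 nearest profiles per tested member. Exceptions, named after their values were seen, are IDH1-AS1, DAXX and the IDH3 genes. The members and lists were chosen with earlier results of these data known. Transcript lengths are from GENCODE 29 and promoters from a supplied RefSeq table, in which 7 of the 8 genes were matched. PINX1 has a second entry in the table, and the one with the larger exonic size was used. Python 3.11.15, numpy 2.4.6, pandas 2.3.3 and scipy 1.17.1 were used. A few genes of these pathways are not reported here and were left out of the lists.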

Additional observations from a re-analysis of the deposited data

How the results depend on the processing

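The direction of NF1, TERT, ATRX, IDH1, IDH2, PIK3CA and PIK3R1 held under each alternative run (14 for the tested genes, 12 for TERT), and MGMT gave no value. DESeq2 brought NF1 (log2 fold change 0.61, adjusted p = 0.0125) and ATRX (0.44, adjusted p = 0.00733) past 0.05, and scaling by the total count did so for ATRX (0.53, adjusted p = 0.0466), where the median of all genes moved to 0.07 from -0.02. When each library was left out in turn, the log2 fold change ranged from 0.47 to 0.70 for NF1, 0.41 to 0.48 for ATRX, 0.28 to 0.45 for IDH2, -0.49 to -0.10 for IDH1, -0.51 to -0.25 for PIK3CA, -0.23 to -0.17 for PIK3R1 and -2.06 to -0.86 for TERT, and only the fit without NC library 3 brought any of them past 0.05. In that fit IDH1, PIK3CA and TERT moved the most. PIK3R1 came to -0.11 with total count scaling and to -0.08 in limma on log2(FPKM + 1). In the same limma fit IDH1 had -0.24, PIK3CA -0.22 and TERT -0.05. The number of genes called, 224, became 664 without the filter, 499 in DESeq2, 113 in limma on log2(FPKM + 1), 125 on log2(FPKM + 0.1) and between 0 and 491 with 1 library left out (491 without NC library 3, 0 without any other). With adjusted p alone it was 489, and 5591 when NC library 3 was also left out, a setting added after the data were seen, as was the second gene length. The members called stayed at 0 under each setting except that last one, which gave 4. List genes called went from 0 to 1 (TET3) without the filter or in DESeq2, to 3 with adjusted p alone and to 57 in the last setting (48.3% of the tested list genes, against 35.2% of all tested genes). The replicate block gave 0 called genes, so EVI2A and EVI2B were not called in it (3323 with an unadjusted p under 0.05), and adjusted p-values in it were at least 0.145 for the 6 tested genes. Deviations of libraries with the same number correlated at -0.07, 0.04 and -0.04, so the numbers were not taken as pairs. The cause of these shifts was not tested. TERT, with 12 counts over the NC libraries and 5 over the others, was limited by depth. MGMT had 0 counts, with a 95% limit of 0.0062 FPKM over all 6 libraries together, and gave no difference to test.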
